A study of Mus musculus with 7 samples.

Results

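Adult lung epithelial cells of postnatal day 56 (P56) were compared with late fetal lung epithelial cells of embryonic day 18.5 (E18.5), about the last day before birth in the mouse. The comparison uses the libraries whose labels give these ages, 4 of the 7 in the series: 2 of P56 and 2 of E18.5. The other 3 libraries, 1 each of E13.5, of E15.5 and of P14, entered the fit and are shown only for their values. All mice were C57BL/6, an inbred strain, without a mutation or treatment in the labels. In both groups lungs were digested with enzymes, antibody-labelled cells were removed with magnetic beads, and living cells that bore Epcam, a surface protein of epithelia, were sorted. Their polyadenylated RNA was amplified before sequencing. Cells with CD31, CD45, CD146 or Ter119, proteins of vessel and blood cells, were gated out. The labels give neither the number of animals behind a library nor their sex or the hour of collection, and they do not say that libraries of a stage came from separate animals. The p-values below therefore measure only the spread between these samples, which may be technical.

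The alveoli, where gas exchange takes place, are lined by an epithelium of type 1 cells, which are flat and cover most of the surface, and type 2 cells, which are cuboidal and secrete surfactant. At E18.5 the lung is still filled with fluid that its own epithelium secretes, and the air sacs are being formed. By P56 the mouse is an adult whose epithelium has long faced air, inhaled particles and microbes. The airways carry club, ciliated and a few neuroendocrine cells. A sort on Epcam takes in all of these cells in whatever proportion they are released from the tissue, and type 1 cells are known to be hard to recover intact from adult lungs. In bulk samples such as these, fewer cells of a type and less RNA per cell cannot be told apart.

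The libraries were made by 3' SAGE-seq, in which each transcript with a poly(A) tail gives a short tag near its 3' end. Levels are therefore set side by side only for the same gene. A value is a tag count scaled by the authors, called units here. The libraries held 3587970 and 3227687 reads at P56, against 2617913 and 2808678 at E18.5, and 1 read was worth 0.285 and 0.324 units at P56, against 0.385 and 0.377 at E18.5. Among the genes that check the sort, Epcam stood at 109 and 60.9 at P56, against 85.1 and 55.8 at E18.5. Cdh1, which encodes the epithelial adhesion protein E-cadherin, stood at 206 and 228 at P56, against 255 and 286 at E18.5, and Nkx2-1, the transcription factor that marks lung epithelium, at 1110 and 980.1 at P56, against 1459 and 1969 at E18.5. Ptprc, which encodes CD45, had 0 and 1 reads at P56, against 0 and 0 at E18.5. Pecam1, which encodes CD31, had 0 and 0 reads at P56, against 1 and 0 at E18.5. Mcam, which encodes CD146, had 1 and 0 reads at P56, against 4 and 4 at E18.5. The alpha globin gene Hba-a1 had 15 and 18 reads at P56, against 0 and 10 at E18.5.

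Of 12964 genes tested, 1046 were higher and 797 lower at P56 (limma, Benjamini-Hochberg adjusted p under 0.05), which is 8.07% and 6.15% of the genes tested, or 14.2% in either direction. Every adjusted p below is from this fit unless edgeR is named. A fold is the ratio of the stage means. Where a stage has 1 to 3 reads the ratio has a 95% counting interval, where it has none the fold is a bound against 3 reads over both libraries, and both cover counting error only. Folds of genes with a few more reads than that in a stage have no interval and are imprecise too. The median log2 change over all genes tested was 0.06. Of the called genes, 401 were at least 4-fold higher and 371 at least 4-fold lower. The called genes carried a large part of the RNA: those called higher took 27.7% and 29.1% of the reads at P56, against 8.8% and 8.2% at E18.5, and those called lower took 9.6% and 9.1% at P56, against 25.7% and 27.5% at E18.5. No read was found at E18.5 for 50 of the genes called higher, and none at P56 for 68 of the genes called lower. Libraries of the 2 stages did not overlap in 56.6% of all genes tested, so that non-overlap alone is common here. With 2 libraries a stage a small p all but requires non-overlap, so non-overlap of called genes adds no support to them. edgeR's quasi-likelihood test on the recovered reads called 1074 genes higher and 1023 lower, 999 and 783 of them shared with limma. With 1 library left out limma called 0 genes in either direction, on 1 residual degree of freedom, with 958 to 1986 genes higher and 882 to 1322 lower at an unadjusted p under 0.05. edgeR still called 576 to 1474 genes higher and 595 to 1323 lower, the fewest higher without P56 replicate 2 and the most without E18.5 replicate 1.

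**Figure D1:**
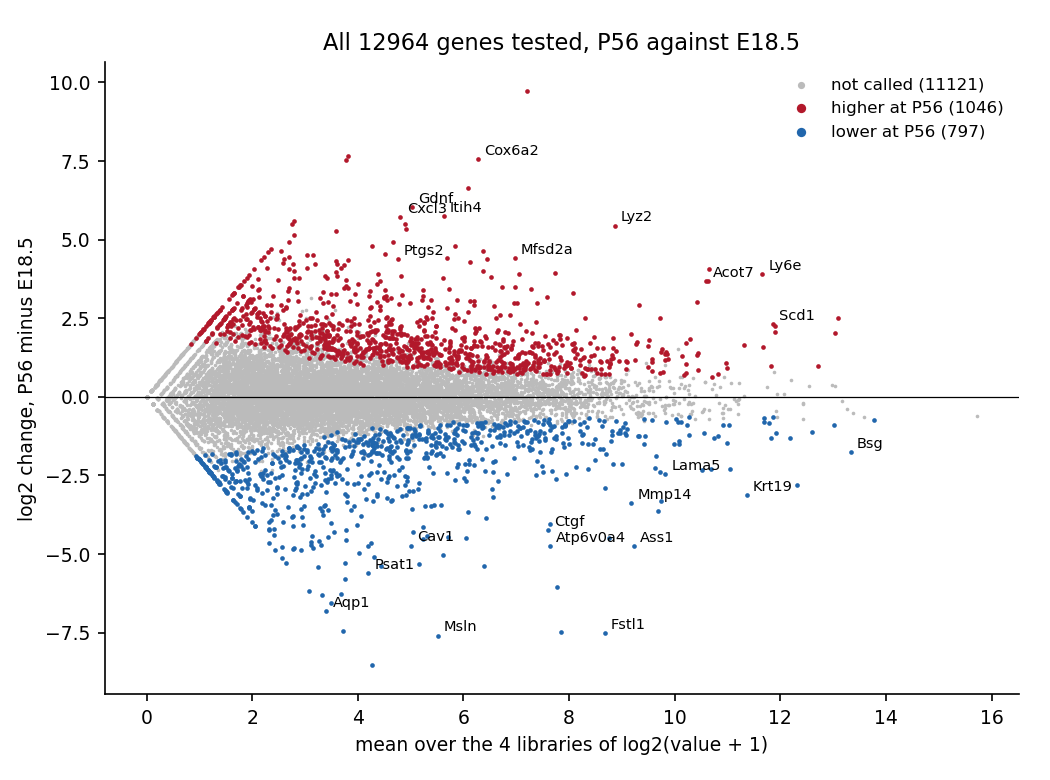
Log2 change of each gene tested (P56 minus E18.5, vertical axis) against its mean log2(value + 1) over the 4 libraries (horizontal axis), with genes called higher at P56 in red, genes called lower in blue and the rest in grey. The 1046 red and 797 blue points lie at low and high levels alike, and labels mark genes described in the text.

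Type 2 markers rose and type 1 markers fell, and they stand here first because other gene groups moved beside them. Of 14 type 2 markers tested, 12 rose (85.7%, against 8.07% of all genes) and none fell (median log2 change 1.41). Of 19 type 1 markers, 17 fell (89.5%, against 6.15% of all genes) and none rose (median log2 change -2.48). Type 2 markers summed to 12266 and 13607 units at P56, against 3677 and 3907 at E18.5, and type 1 markers to 4321 and 4729 at P56, against 11080 and 12735 at E18.5. None of the type 1 markers was at 0 in any of the 4 libraries. Clic5, a chloride channel family protein of type 1 cells, stood at 226 and 238 at P56, against 2745 and 3089 at E18.5, 12.6-fold lower (adjusted p = 7.17e-05). Rtkn2, used as a marker of type 1 cells, stood at 7.11 and 5.83 at P56, against 130.5 and 165 at E18.5, 22.8-fold lower (adjusted p = 0.000151). Scnn1g, the gamma subunit of the epithelial sodium channel, was at 3.42 and 2.27 at P56, against 87.4 and 101 at E18.5, 33.2-fold lower (adjusted p = 0.000187). In each of these 3 genes both P56 libraries lay far below both E18.5 libraries. Aqp5, the water channel of type 1 cells, was not called, at 2545 and 3000 at P56, against 1931 and 2181 at E18.5 (log2 change 0.43, adjusted p = 0.172). The part that a different share of type 1 cells has in the results below was not tested. Among airway markers, 5 of 8 tested for club cells rose and 2 fell (62.5% and 25%, against 8.07% and 6.15% of all genes). For ciliated cells 3 of 25 rose and 1 fell (12% and 4%), near the shares of all genes. edgeR called 4 ciliated markers higher with all libraries, 2 without P56 replicate 1, 1 without P56 replicate 2 and 2 without E18.5 replicate 2.

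Mesenchymal markers, which a sort on Epcam should exclude, were low in all 4 libraries, at 106.1 and 72.6 units at P56, against 240.2 and 238.5 at E18.5 for the sum of 18 genes. Of 12 tested, 8 fell and 2 rose (66.7% and 16.7%, against 6.15% and 8.07% of all genes). In a library 4 to 8 of the 18 were at 0. Eln, the elastin gene, stood at 0.854 and 0.972 at P56, against 43.9 and 55.8 at E18.5, 54.6-fold lower, while Dcn, which encodes the matrix proteoglycan decorin, stood at 70.9 and 44.05 at P56, against 6.16 and 0.377 at E18.5, 17.6-fold higher (adjusted p = 0.000252 and 0.00921). Immune markers other than the lysozyme gene Lyz1 summed to 8.25 and 12.6 units at P56, against 2.69 and 18.8 at E18.5, over 16 genes of which 9 to 13 were at 0 in a library. Endothelial markers other than Esam, a junction protein gene, summed to 19.1 and 12.3 units at P56, against 10.4 and 15.4 at E18.5. Esam itself stood at 188 and 241 at P56, against 92.8 and 101 at E18.5, 2.21-fold higher (adjusted p = 0.0174), and with it the marker sums were 206.6 and 253.6 units at P56, against 103.2 and 116.4 at E18.5. Without P56 replicate 2, edgeR no longer called Esam (adjusted p = 0.0791).

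The largest rises among genes with a mean of at least 100 units were in genes of varied function. Cox6a2 is the cytochrome c oxidase subunit isoform known from heart and skeletal muscle. It stood at 906 and 1254 at P56, against 8.86 and 2.26 at E18.5, 194-fold higher (log2 change 7.56, SE 0.50, adjusted p = 0.000208). The gene lies at chromosome 7, 128205435 to 128206366 in RefSeq's annotation of GRCm38.p6, which gives all gene positions below. Its ubiquitous counterpart Cox6a1 stood at 46.7 and 100.4 at P56, against 40.4 and 19.97 at E18.5 and was not called (adjusted p = 0.1103). Gdnf, a neurotrophic factor that signals through the receptor Ret, stood at 236 and 295 at P56, against 3.46 and 2.64 at E18.5, 87-fold higher (log2 change 6.04, SE 0.30, adjusted p = 7.89e-05; chromosome 15, 7810048 to 7837580). Lyz2, a lysozyme that cleaves bacterial cell walls and is on the type 2 marker list, stood at 2633 and 3612 at P56, against 68.9 and 70.5 at E18.5, 44.8-fold higher (adjusted p = 5.45e-05). Its neighbour Lyz1, with which it can share tags, stood at 6404 and 6806 at P56, against 397 and 384 at E18.5, 16.9-fold higher (adjusted p = 5.45e-05). Mfsd2a, a transporter of lysophosphatidylcholine that carries the fatty acid DHA, stood at 570.0 and 579.7 at P56, against 23.1 and 29.8 at E18.5, 21.8-fold higher (adjusted p = 0.000109; chromosome 4, 122946850 to 122961194). For each called gene of this group the lower P56 library exceeded the higher E18.5 library many times over. Non-overlap was required of the 16 largest rises, so it adds no support to them.

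Among the same 16 largest rises were Mme, Enpep and Entpd1, genes of enzymes of the outer cell surface, a grouping made after the values were seen. Mme encodes neprilysin, a peptidase that degrades many signalling peptides, and stood at 109 and 91.3 at P56, against 2.69 and 2.64 at E18.5, 37.6-fold higher (adjusted p = 0.000178). Enpep encodes glutamyl aminopeptidase, which cleaves angiotensin II, and stood at 412 and 411 at P56, against 10.01 and 23.7 at E18.5, 24.4-fold higher (adjusted p = 0.000425). Entpd1 encodes CD39, which breaks down extracellular ATP, and stood at 417 and 373 at P56, against 23.5 and 13.9 at E18.5, 21.1-fold higher (adjusted p = 0.000249). Among the other large rises, Rasd2, a small GTPase gene best known from the striatum, stood at 287 and 316 at P56, against 5.39 and 17.3 at E18.5, 26.5-fold higher. Thsd4, which encodes a matrix protein that associates with fibrillin, stood at 156 and 123 at P56, against 4.24 and 3.01 at E18.5, 38.5-fold higher. Antxr1, a receptor for anthrax toxin that binds collagen, stood at 217 and 265 at P56, against 8.86 and 11.7 at E18.5, 23.4-fold higher. Aox3, an aldehyde oxidase of drug metabolism, stood at 90.2 and 131 at P56, against 4.62 and 3.01 at E18.5, 28.96-fold higher. Scgb1a1, which club cells secrete in abundance, stood at 344 and 273 at P56, against 15.02 and 14.7 at E18.5, 20.8-fold higher, and adjusted p-values of these last 5 genes lay between 0.000117 and 0.000938.

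Among the largest falls were surface, matrix and fetal RNA-binding protein genes. Msln encodes mesothelin, a glycosylphosphatidylinositol-anchored surface protein, and stood at 3.699 and 1.296 at P56, against 549 and 733 at E18.5, 257-fold lower (log2 change -7.60, SE 0.40, adjusted p = 9.07e-05; chromosome 17, 25748613 to 25754378). Its relative and neighbour Mslnl stood at 0.285 and 1.62 at P56, against 88.9 and 112 at E18.5, 106-fold lower (adjusted p = 0.000341; chromosome 17, 25733503 to 25748354). The mesothelial markers other than Msln and the keratin gene Krt19 summed to 30.5 and 7.77 units at P56, against 5.005 and 2.637 at E18.5. Fstl1, a secreted antagonist of bone morphogenetic proteins, stood at 23.6 and 35.95 at P56, against 5567 and 5538 at E18.5, 186-fold lower (log2 change -7.53, SE 0.22, adjusted p = 1.16e-05; chromosome 16, 37777055 to 37836516). Igf2bp3, an oncofetal RNA-binding protein, stood at 0 and 0.324 at P56, against 91.2 and 127 at E18.5, 675-fold lower (counting interval 121 to 26700). Its adjusted p was 7.17e-05. Its paralogs fell too. Igf2bp1 stood at 0 and 0 at P56, against 13.9 and 18.8 at E18.5, at least 35.8-fold lower (adjusted p = 0.000779). Igf2bp2 stood at 3.13 and 2.59 at P56, against 15.02 and 29.01 at E18.5, 7.695-fold lower (adjusted p = 0.00763). Tecrl, a trans-2-enoyl-CoA reductase-like gene known from heart, stood at 0.285 and 0.648 at P56, against 113 and 111 at E18.5, 241-fold lower (counting interval 81.9 to 1170), with adjusted p = 7.89e-05. Aqp1, a water channel gene of endothelia and of other cells, had 0 and 0 reads at P56, against 231 and 371 at E18.5, at least 251-fold lower (adjusted p = 0.000115). No P56 library reached the lower E18.5 library in any of these genes. For those among the 16 largest falls the rule of choice required this, so it adds no support.

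Further large falls touched the cross-linking of matrix, cell death receptors, a proton pump and granules. Lox encodes lysyl oxidase, which cross-links collagen and elastin, and stood at 3.42 and 6.15 at P56, against 194 and 261 at E18.5, 47.6-fold lower (adjusted p = 0.000117). Tnfrsf21, death receptor 6, stood at 3.13 and 16.5 at P56, against 275 and 280.3 at E18.5, 28.3-fold lower (adjusted p = 0.00214). Atp6v0a4, a subunit isoform of the proton pump found in acid-secreting cells, stood at 42.1 and 32.7 at P56, against 1128 and 943 at E18.5, 27.7-fold lower (adjusted p = 7.17e-05). Atp6v1c2, another tissue isoform of the same pump, went the other way, at 1506 and 1056 at P56, against 362 and 476 at E18.5, 3.06-fold higher (adjusted p = 0.00613). Nbeal2, a gene needed for platelet granules, stood at 5.69 and 8.097 at P56, against 169.8 and 190.3 at E18.5, 26.1-fold lower (adjusted p = 0.000151).

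In absolute terms the biggest differences lay in abundant genes. Ly6e, a glycosylphosphatidylinositol-anchored surface protein that limits infection by several viruses, averaged 12500 ± 64.3 at P56 and 843 ± 116 at E18.5 (SD, n = 2 each). Sepp1, which encodes the selenium carrier selenoprotein P, averaged 8382 ± 1650 at P56 and 1738 ± 148 at E18.5, and Scd1, which puts the double bond into stearate, 8286 ± 671 at P56 and 1674 ± 137 at E18.5. Acot7, which splits long-chain acyl-CoA and is best known from brain, averaged 5569 ± 123 at P56 and 429.6 ± 16.9 at E18.5. On the other side Bsg, which encodes the surface protein basigin, a partner of lactate transporters, averaged 5681 ± 1425 at P56 and 19120 ± 3360 at E18.5. Krt7, a keratin gene, averaged 1929 ± 284 at P56 and 13550 ± 3167 at E18.5, and its relative Krt19 889 ± 67.7 at P56 and 7799 ± 415 at E18.5. All 7 genes were called, with adjusted p between 5.45e-05 and 0.00291. Of the genes with the most tags over the 4 libraries, Eef1a1, the main elongation factor of translation, averaged 43610 ± 3115 at P56 and 67640 ± 11210 at E18.5 and missed the threshold (adjusted p = 0.0511, edgeR adjusted p = 0.0327). The tight junction gene Cldn18 averaged 8893 ± 478 at P56 and 12690 ± 1130 at E18.5 and was not called either (adjusted p = 0.0735, edgeR adjusted p = 0.0554).

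Across 30 gene lists the shares called higher or lower ran from none to most of the members. Against the 8.07% and 6.15% of all genes, the shares called higher were greatest in complement, chemokines, lipid storage and prostaglandin genes, and the shares called lower in basement membrane and in actin and caveolae genes, among these 30 lists, which hold neither the marker lists nor the 7 keratin genes. Proteasome subunits and mitochondrial fatty acid oxidation, with 31 and 20 genes tested, held no gene called by limma, with 0 and 2 genes at an unadjusted p under 0.05, where edgeR called 0 and 1 and DESeq2 none. These lists were chosen with earlier results known, and each list count below is to be read against the 8.07% and 6.15% of all genes. Counts of 1 or 2 members can rest on a single library, as the 2 glycolysis genes called higher by edgeR became 0 without P56 replicate 1.

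**Figure D2:**
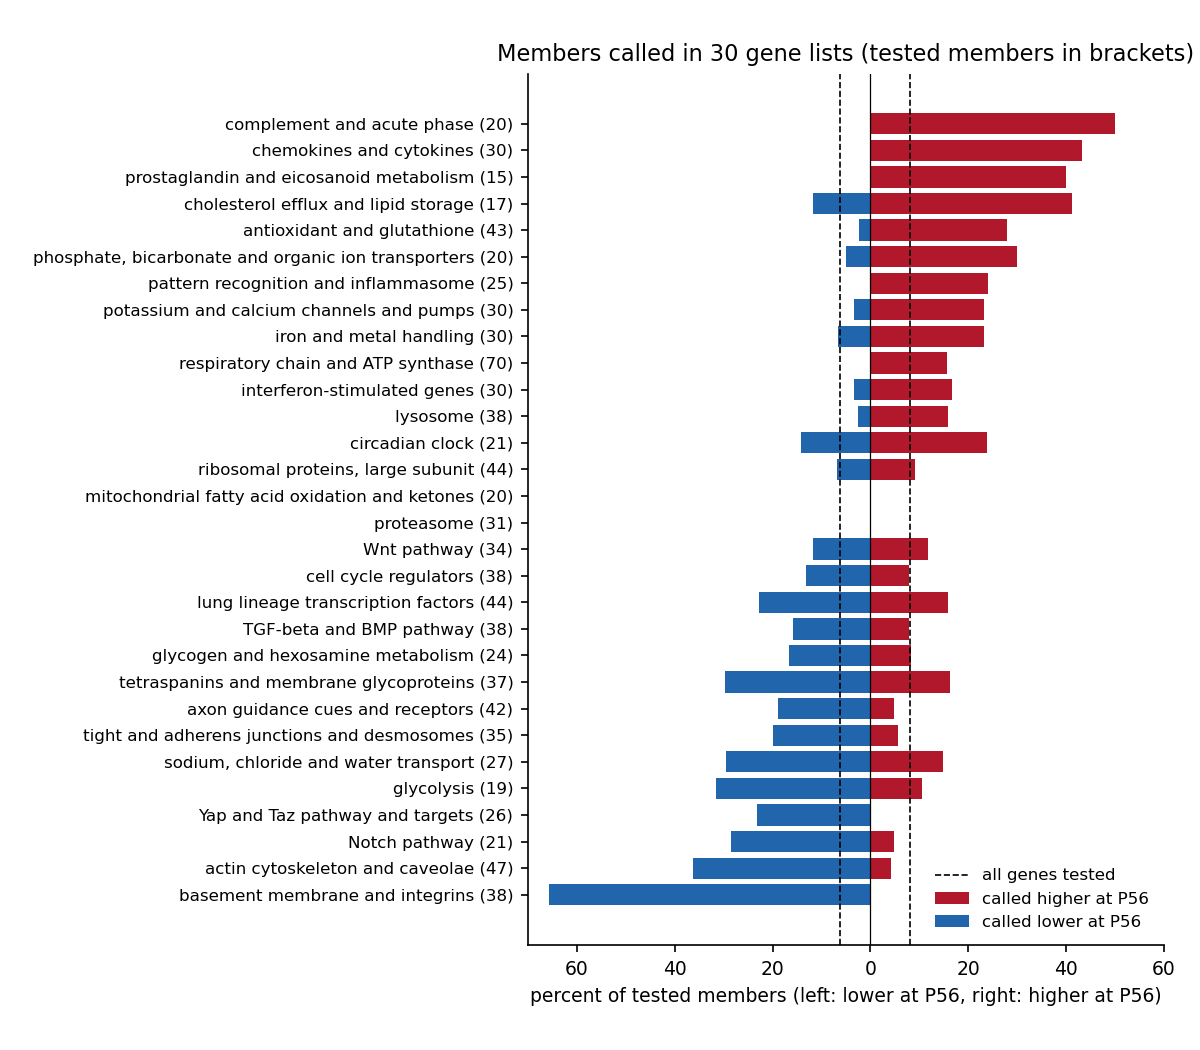
Percentage of the tested members of 30 gene lists that were called higher (red, to the right) or lower (blue, to the left) at P56 against E18.5, with the share among all 12964 genes as dashed lines at 8.07% and 6.15%. The bar of basement membrane and integrins reaches 65.8% to the left with none to the right, and that of complement and acute phase reaches 50% to the right.

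Genes of the basement membrane fell together. The basement membrane is the sheet of laminin, collagen IV and heparan sulphate proteoglycans on which an epithelium sits, and integrins and dystroglycan tie cells to it. Of 38 such genes tested, 25 fell and none rose, against 6.15% of all genes called lower, and their median log2 change was -1.96 against 0.06 over all genes. Among the 38, 6 had a log2 change above 0, and edgeR with all libraries called 25 lower and 1 higher. edgeR with 1 library left out called 25, 25, 25 and 26 members lower. Lama5, the alpha chain of the main laminins of the lung, stood at 363 and 408 at P56, against 1965 and 2258 at E18.5, 5.48-fold lower (log2 change -2.45, SE 0.17, adjusted p = 0.000252; chromosome 2, 180176373 to 180225904). Lamc1, the gamma chain of the same laminins, stood at 31.3 and 34.3 at P56, against 285 and 233 at E18.5, 7.89-fold lower (adjusted p = 0.000249; chromosome 1, 153218922 to 153332786). The beta chain gene Lamb1 stood at 2.56 and 0.324 at P56, against 80.8 and 87.4 at E18.5, 58.3-fold lower (adjusted p = 0.00053). Of laminin 332, the laminin of hemidesmosomes, the alpha chain gene Lama3 stood at 7.399 and 9.72 at P56, against 86.6 and 81.8 at E18.5, 9.84-fold lower (adjusted p = 0.000434). Its beta chain gene Lamb3 stood at 22.2 and 26.6 at P56, against 49.7 and 35.8 at E18.5 and was not called (adjusted p = 0.118).

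All 6 collagen IV chains fell, and their genes lie in 3 head-to-head pairs. Col4a1, of the network common to most basement membranes (chromosome 8, 11198423 to 11312889), stood at 399 and 439 at P56, against 1477 and 1610 at E18.5, 3.68-fold lower. Its partner Col4a2 (chromosome 8, 11312805 to 11449287) stood at 966 and 1228 at P56, against 2481 and 2956 at E18.5, 2.48-fold lower. Col4a3, of the network of alveoli and glomeruli (chromosome 1, 82586921 to 82722059), stood at 33.01 and 14.6 at P56, against 135 and 152 at E18.5, 6.04-fold lower. Its partner Col4a4 (chromosome 1, 82448419 to 82587034) stood at 9.11 and 8.42 at P56, against 53.5 and 47.9 at E18.5, 5.78-fold lower. Col4a5, which joins either of the minor networks (chromosome X, 141475370 to 141689236), stood at 2.85 and 3.56 at P56, against 27.3 and 22.98 at E18.5, 7.85-fold lower. Its partner Col4a6 (chromosome X, 141165403 to 141474095) stood at 0.854 and 1.62 at P56, against 18.9 and 32.8 at E18.5, 20.9-fold lower. The adjusted p-values of the 6 chains lay between 0.000678 and 0.00547, and in none did the values of P56 and E18.5 overlap. Non-overlap held for 56.6% of all genes tested. Col4a3 and Col4a4 are also among the type 1 markers given above.

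Proteoglycans and adhesion proteins of the sheet followed. Agrn, which encodes agrin, stood at 21.6 and 15.2 at P56, against 262 and 222 at E18.5, 13.1-fold lower (adjusted p = 0.000221; chromosome 4, 156165290 to 156197533), and Hspg2, which encodes perlecan, at 1.99 and 1.62 at P56, against 40.4 and 48.98 at E18.5, 24.8-fold lower (adjusted p = 0.000286). Npnt, which encodes nephronectin, a ligand of integrin alpha 8, stood at 122 and 134 at P56, against 533 and 692 at E18.5, 4.78-fold lower (adjusted p = 0.000737). Fras1, part of a complex that holds fetal epithelia to the mesenchyme, stood at 0.285 and 0 at P56, against 27.7 and 32.4 at E18.5, 211-fold lower (counting interval 37.4 to 8397), with adjusted p = 0.000346. Its partner Frem2 stood at 0.854 and 3.24 at P56, against 18.9 and 28.3 at E18.5, 11.5-fold lower (adjusted p = 0.00515). Receptors fell too. Itga3, an integrin subunit that binds laminin, stood at 94.8 and 81.3 at P56, against 229 and 344 at E18.5, 3.25-fold lower (adjusted p = 0.0056). Itga6, another such subunit, stood at 29.9 and 27.9 at P56, against 129 and 176 at E18.5, 5.29-fold lower (adjusted p = 0.00114). Dag1, which encodes dystroglycan, stood at 184 and 178 at P56, against 512 and 500.0 at E18.5, 2.798-fold lower (adjusted p = 0.00215). Itgb1, an integrin beta subunit gene, did not pass the test, at 996 and 747 at P56, against 993 and 1053 at E18.5 (adjusted p = 0.457). Outside the list, the membrane-bound collagenase gene Mmp14 stood at 198 and 162 at P56, against 1728 and 2013 at E18.5, 10.4-fold lower (adjusted p = 0.000115). Timp3, a member that inhibits such enzymes, stood at 77.7 and 87.8 at P56, against 393 and 369 at E18.5, 4.61-fold lower (adjusted p = 0.000579). Of the 25 members that fell, 23 are on no cell type marker list used here. These lists are short, so absence from them does not tell which cells express a gene. Type 1 markers and the mesenchymal marker sum, with the values given above, were also lower at P56, and their part in this result was not tested.

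**Figure D3:**
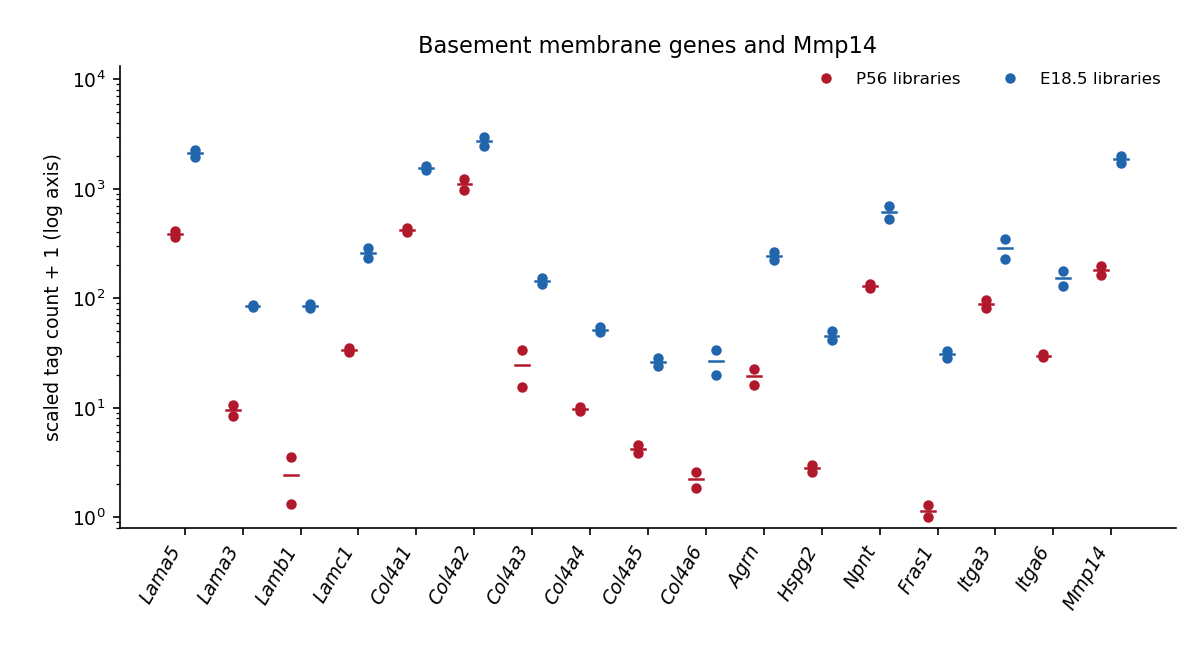
Values of 16 basement membrane genes and Mmp14 in each library as scaled tag counts plus 1 on a log axis, with the P56 libraries in red to the left of the E18.5 libraries in blue and a short line at the mean of each pair. In each of the 17 genes both red points lie below both blue points, and the smallest ratio of the means is 2.48-fold in Col4a2.

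Genes of the actin cytoskeleton and of caveolae, the small flask-shaped pits of the plasma membrane, fell in part. Of 47 tested, 17 fell and 2 rose, with a median log2 change of -0.46. Genes of caveolae were among those that fell. Cav1, the scaffold protein of caveolae, stood at 5.98 and 4.53 at P56, against 181 and 149 at E18.5, 31.4-fold lower (log2 change -4.73, SE 0.28, adjusted p = 0.00013; chromosome 6, 17306335 to 17341328). The cavins, which coat them, followed. Prkcdbp stood at 54.1 and 43.1 at P56, against 774 and 842 at E18.5, 16.6-fold lower (adjusted p = 8.03e-05). Sdpr stood at 19.1 and 24.6 at P56, against 293 and 359 at E18.5, 14.9-fold lower (adjusted p = 0.00014). Ptrf stood at 86.5 and 92.6 at P56, against 479 and 454 at E18.5, 5.21-fold lower (adjusted p = 0.000366). Msn, which encodes moesin, a linker of actin to the membrane, stood at 72.8 and 83.9 at P56, against 373 and 463 at E18.5, 5.33-fold lower (adjusted p = 0.000575). The fold of the actin gene Actg1 was smaller, at 1528 and 1538 at P56, against 3100 and 2624 at E18.5, 1.87-fold lower (adjusted p = 0.0134). All 6 genes named here had both P56 values under both E18.5 values, where 56.6% of all genes tested did not overlap between the stages. Cav1 is also a type 1 marker, and caveolae are abundant in type 1 cells. The type 1 marker values given above lie beside this result, and their part in it was not tested.

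Genes of the Yap and Taz pathway fell in part. Yap and Taz are co-activators that enter the nucleus of spread or stretched cells and act through Tead factors. Of 26 pathway and target genes tested, 6 fell and none rose, and edgeR called 10 lower. The median log2 change of the 26 was -0.43. Ctgf, a matricellular protein and the best known target, stood at 45.5 and 42.1 at P56, against 794 and 900.5 at E18.5, 19.3-fold lower (log2 change -4.24, SE 0.18, adjusted p = 5.45e-05; chromosome 10, 24595442 to 24598683). Cyr61, a related target, stood at 183 and 205 at P56, against 582 and 520.3 at E18.5, 2.84-fold lower (adjusted p = 0.00245), and Ajuba, a LIM protein that holds back the kinases upstream of Yap, at 9.96 and 7.12 at P56, against 104 and 121 at E18.5, 13.1-fold lower (adjusted p = 0.000249). Wwtr1, which encodes Taz itself, stood at 17.9 and 17.8 at P56, against 85.1 and 90.4 at E18.5, 4.91-fold lower (adjusted p = 0.00142), while Yap1 stood at 22.5 and 28.8 at P56, against 19.6 and 13.2 at E18.5 and was not called (adjusted p = 0.229). Tead1, a partner factor, stood at 11.4 and 18.1 at P56, against 52.4 and 39.2 at E18.5, 3.101-fold lower (adjusted p = 0.0172). Tead4, another, stood at 5.41 and 3.89 at P56, against 24.6 and 18.8 at E18.5, 4.68-fold lower (adjusted p = 0.0153). The P56 libraries were below the E18.5 libraries in all 6 called genes, where 56.6% of all genes tested did not overlap. edgeR called 10 pathway genes lower with all libraries, 5 without P56 replicate 1 and 6 without P56 replicate 2. edgeR did not call Tead1 (adjusted p = 0.0574) without P56 replicate 1. Leaving out P56 replicate 2 ended the edgeR call of Tead4 (adjusted p = 0.0539).

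The promoters of Cyr61 and Ajuba are shown because both genes fell and their promoter windows hold the letters that Tead factors are known to bind. The windows run from 250 bases before to 50 bases after the gene start, in RefSeq's annotation of GRCm38.p6, and were searched on both strands for CATTCC, a motif chosen after the values were seen. Cyr61 (listed as Ccn1) is shown for chr3:145650038-145650133, minus strand and Ajuba for chr14:54577775-54577892, minus strand, with the motif in capitals.
Cyr61: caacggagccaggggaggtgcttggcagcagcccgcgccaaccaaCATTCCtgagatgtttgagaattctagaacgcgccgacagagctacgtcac
Ajuba: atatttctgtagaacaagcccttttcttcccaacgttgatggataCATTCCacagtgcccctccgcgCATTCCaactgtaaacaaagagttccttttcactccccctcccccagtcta
The match starts 103 bases before the start of Cyr61, and the 2 matches of Ajuba start 186 and 164 bases before its start. Of the 6 pathway genes called lower, 3 had a window and all 3 held the motif, among them Wwtr1. Of the 20 not called, 17 had a window and 10 held it, and 14.7% of all 32851 windows held it. The list counts are of genes with a match in any of their windows, while the 14.7% counts single windows. A match describes the letters only.

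Keratin and junction genes changed mostly toward lower levels. Of 7 keratin genes tested, 3 fell and 1 rose. Krt7, a keratin of simple epithelia, stood at 2129 and 1728 at P56, against 11315 and 15794 at E18.5, 7.03-fold lower (adjusted p = 0.000317). Krt19, another, stood at 936 and 841 at P56, against 7505 and 8093 at E18.5, 8.78-fold lower (adjusted p = 8.83e-05). Krt23 moved the other way, at 38.1 and 45.02 at P56, against 0.385 and 1.51 at E18.5, 43.95-fold higher (adjusted p = 0.000912). Krt23 had only 1 and 4 reads at E18.5. Krt8, another keratin gene, was not called, at 90.5 and 117 at P56, against 161 and 186 at E18.5 (adjusted p = 0.0667). Of 35 junction genes, 7 fell and 2 rose. Cldn4, one of the claudins that set the ion selectivity of tight junctions, stood at 2.85 and 1.94 at P56, against 117 and 164 at E18.5, 58.7-fold lower (adjusted p = 0.000117). Cldn10, another, stood at 17.6 and 8.097 at P56, against 453 and 634 at E18.5, 42.2-fold lower (adjusted p = 0.000201). Cldn10 is also on the club marker list, whose members mostly rose. Pard6b, a polarity protein gene, stood at 36.99 and 43.1 at P56, against 172 and 152 at E18.5, 4.05-fold lower (adjusted p = 0.00156). Dsp, which encodes the desmosomal plaque protein desmoplakin, stood at 75.98 and 89.7 at P56, against 188 and 182 at E18.5, 2.24-fold lower (adjusted p = 0.00979).

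Many chemokine and cytokine genes rose. These secreted or surface proteins call in and instruct immune cells, and the neutrophil-attracting CXC chemokines are induced by NF-kappaB. Of 30 chemokine and cytokine genes tested, 13 rose and none fell, against 8.07% of all genes called higher, with a median log2 change of 1.35. With all libraries edgeR called 11 of them higher and 1 lower. The promoters of Cxcl1, Cxcl2, Cxcl3, Il6 and Cxcl10 are shown because these genes rose and their windows hold GGGA, any 2 bases and TTCC, a motif of NF-kappaB that was searched on both strands and chosen after the values were seen. The sequences are RefSeq's on GRCm38.p6, all 250 bases before the start for the 3 neighbours Cxcl1 (chr5:90890995-90891244, plus strand), Cxcl2 (chr5:90903649-90903898, plus strand) and Cxcl3 (chr5:90785851-90786100, plus strand), and a part around the match for Il6 (chr5:30013025-30013113, plus strand) and Cxcl10 (chr5:92348994-92349093, minus strand). Capitals mark the motif, over the matches of both strands where these overlap. 
Cxcl1: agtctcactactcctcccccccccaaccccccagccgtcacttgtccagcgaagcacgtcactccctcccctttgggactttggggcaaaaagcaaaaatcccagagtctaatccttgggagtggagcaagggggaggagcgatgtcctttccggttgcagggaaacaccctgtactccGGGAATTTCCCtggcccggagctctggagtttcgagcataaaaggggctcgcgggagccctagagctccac
Cxcl2: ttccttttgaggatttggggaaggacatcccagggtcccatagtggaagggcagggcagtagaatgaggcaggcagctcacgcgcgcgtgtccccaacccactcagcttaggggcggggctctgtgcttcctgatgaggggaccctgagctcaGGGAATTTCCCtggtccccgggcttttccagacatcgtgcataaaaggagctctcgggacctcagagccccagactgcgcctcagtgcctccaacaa
Cxcl3: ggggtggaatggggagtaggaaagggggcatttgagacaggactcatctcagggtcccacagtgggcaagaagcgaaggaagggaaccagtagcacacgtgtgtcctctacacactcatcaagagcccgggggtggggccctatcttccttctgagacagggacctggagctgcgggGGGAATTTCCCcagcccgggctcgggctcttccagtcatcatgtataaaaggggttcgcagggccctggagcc
Il6: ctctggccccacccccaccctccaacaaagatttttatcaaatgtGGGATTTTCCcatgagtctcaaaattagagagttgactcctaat
Cxcl10: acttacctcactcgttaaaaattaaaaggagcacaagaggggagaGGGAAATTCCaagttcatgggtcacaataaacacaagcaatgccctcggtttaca
The matches start 71, 97 and 73 bases before the starts of Cxcl1, Cxcl2 and Cxcl3, 44 bases before that of Il6 and 159 bases before that of Cxcl10. In the 3 neighbours the motif reads the same, GGGAATTTCCC, and matches on both strands. Of the 13 genes called higher, 12 had a window and 6 held the motif, the sixth being Csf1. Of the 17 not called, 10 had a window and 2 held it, and 1.47% of all 32851 windows held it. Here too the list counts are of genes with a match in any of their windows, while the 1.47% counts single windows. The shared ancestry of the 3 neighbours means that their matches are not independent.

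The fold was larger for Cxcl2 and Cxcl3 than for Cxcl1. Cxcl3 stood at 169 and 242 at P56, against 2.69 and 3.01 at E18.5, 72.03-fold higher (log2 change 5.72, SE 0.33, adjusted p = 0.000117). Cxcl2 stood at 169.6 and 229 at P56, against 3.08 and 3.77 at E18.5, 58.2-fold higher (adjusted p = 0.00013), and Cxcl1 at 25.9 and 35.3 at P56, against 3.08 and 3.39 at E18.5, 9.46-fold higher (adjusted p = 0.00472). Tags of Cxcl2 and Cxcl3 can be split between these close copies. Il6, a cytokine that drives the acute phase response, stood at 9.96 and 15.2 at P56, against 0.77 and 0.753 at E18.5, 16.5-fold higher (adjusted p = 0.00855). Il6 had only 2 and 2 reads at E18.5. Tnfsf9, the ligand of the T cell receptor 4-1BB, stood at 761 and 908 at P56, against 58.5 and 47.9 at E18.5, 15.7-fold higher (adjusted p = 9.52e-05; chromosome 17, 57105287 to 57107758). Il33, an alarmin stored in the nucleus of barrier epithelia, stood at 119.5 and 122 at P56, against 9.24 and 12.1 at E18.5, 11.3-fold higher (adjusted p = 0.000575). Csf2, which encodes the growth factor GM-CSF that alveolar macrophages need, stood at 152 and 268 at P56, against 52.8 and 43.3 at E18.5, 4.37-fold higher (adjusted p = 0.00787). Cxcl15, a chemokine of lung epithelium, stood at 2162 and 2171 at P56, against 823 and 897 at E18.5, 2.52-fold higher (adjusted p = 0.00302), and is also a type 2 marker, as is Il33. In each called gene named here both P56 libraries lay above both E18.5 libraries, where 56.6% of all genes tested did not overlap. The call of Cxcl10, at 5.41 and 4.53 at P56, against 0.385 and 0.377 at E18.5, rests on 2 reads at E18.5 and was not made by edgeR (adjusted p = 0.03197, edgeR adjusted p = 0.0781). edgeR called 8 members higher without P56 replicate 1 and 14 without E18.5 replicate 2. Without P56 replicate 2, edgeR no longer called Il6 (adjusted p = 0.0722).

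Complement and acute phase genes, whose products circulate or coat microbes, rose as well: of 20 tested, 10 rose and none fell, with a median log2 change of 1.89. Itih4, an inter-alpha-trypsin inhibitor heavy chain, stood at 293 and 444 at P56, against 4.62 and 7.16 at E18.5, 62.6-fold higher (adjusted p = 0.00013; chromosome 14, 30886476 to 30901986). Its paralog Itih2 rose too, at 6.54 and 5.18 at P56, against 0 and 0.753 at E18.5 (adjusted p = 0.0133). Lrg1, a leucine-rich acute phase glycoprotein, stood at 65.5 and 83.6 at P56, against 1.16 and 0.753 at E18.5, 78.1-fold higher (adjusted p = 0.00034), and Hp, which encodes the haemoglobin scavenger haptoglobin, at 301 and 406 at P56, against 36.2 and 51.2 at E18.5, 8.096-fold higher (adjusted p = 0.000737). Lrg1 had only 3 and 2 reads at E18.5. Hc, which encodes complement C5, stood at 7564 and 8043 at P56, against 1758 and 2000 at E18.5, 4.15-fold higher (log2 change 2.06, SE 0.17, adjusted p = 0.000473). C3, the central complement protein, stood at 222 and 196 at P56, against 42.7 and 52.8 at E18.5, 4.38-fold higher (adjusted p = 0.00196). C6, of the membrane attack complex, stood at 141 and 156 at P56, against 23.1 and 31.3 at E18.5, 5.47-fold higher (adjusted p = 0.00231). Lcn2, which withholds iron from bacteria by binding their siderophores, stood at 54.4 and 91.7 at P56, against 2.69 and 8.67 at E18.5, 12.8-fold higher (adjusted p = 0.00515). Both P56 values exceeded both E18.5 values in all of them, where 56.6% of all genes tested did not overlap between the stages.

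**Figure D4:**
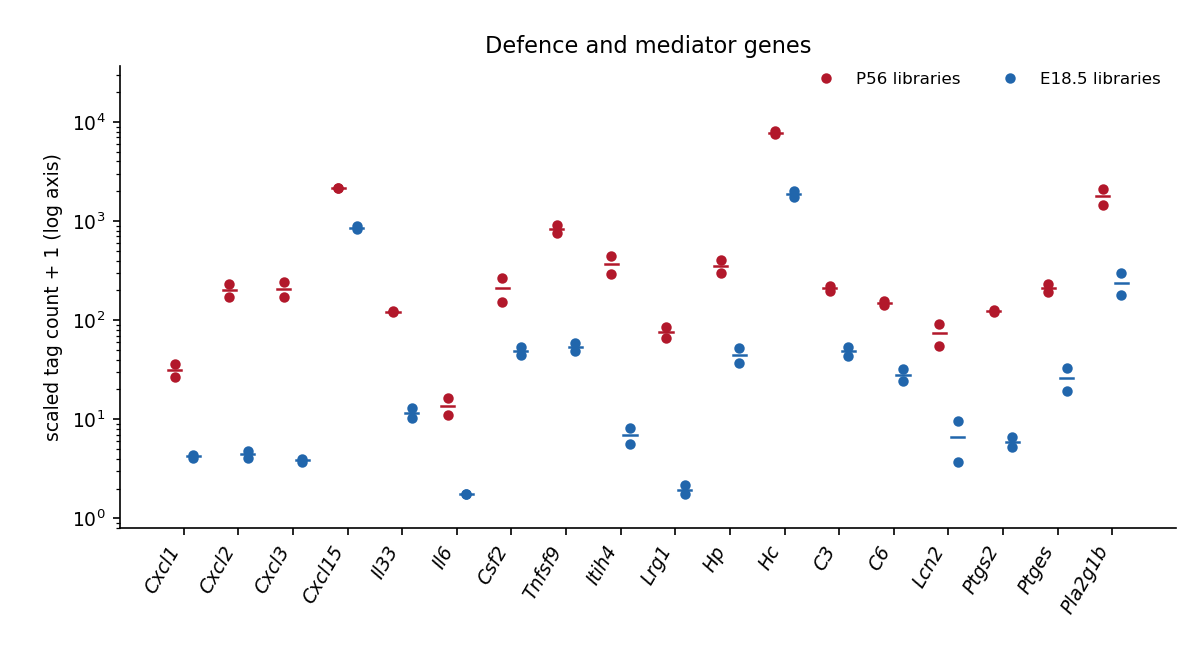
Values of 18 chemokine, cytokine, acute phase, complement and prostaglandin genes in each library as scaled tag counts plus 1 on a log axis, with the P56 libraries in red to the left of the E18.5 libraries in blue and a short line at the mean of each pair. In each gene both red points lie above both blue points, and the ratio of the means runs from 2.52-fold in Cxcl15 to 78.1-fold in Lrg1. The fold of Lrg1 rests on 3 and 2 reads at E18.5.

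Genes that make prostaglandins and related lipid mediators rose in 6 of 15 tested, with none lower. Ptgs2, the inducible cyclooxygenase that begins prostaglandin synthesis, stood at 124 and 120.2 at P56, against 4.24 and 5.65 at E18.5, 24.7-fold higher (log2 change 4.38, SE 0.32, adjusted p = 0.000286). Ptges, which makes prostaglandin E2 from its product, stood at 192 and 231 at P56, against 18.5 and 32.03 at E18.5, 8.38-fold higher (adjusted p = 0.00136). Ptgis, which makes prostacyclin, stood at 28.5 and 26.2 at P56, against 3.85 and 7.91 at E18.5, 4.65-fold higher (adjusted p = 0.00853). Pla2g1b, a secreted phospholipase A2, stood at 1456 and 2129 at P56, against 299 and 179 at E18.5, 7.497-fold higher (adjusted p = 0.001099). The prostaglandin transporter gene Slco2a1 stood at 59.2 and 84.5 at P56, against 21.9 and 19.97 at E18.5, 3.43-fold higher (adjusted p = 0.00845). The groups did not overlap in any of these, nor in 56.6% of all genes tested.

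Sensors and interferon-stimulated genes rose in smaller shares. Of 25 pattern recognition and inflammasome genes, 6 rose and none fell, with a median log2 change of 0.77. Nfkbia, the inhibitor and target of NF-kappaB, stood at 134 and 130.5 at P56, against 45.8 and 66.3 at E18.5, 2.35-fold higher (adjusted p = 0.0206), and Tlr4, the endotoxin receptor, at 46.1 and 45.99 at P56, against 14.2 and 18.5 at E18.5, 2.82-fold higher (adjusted p = 0.0225). This count depended on single libraries: edgeR called 0 members without P56 replicate 1 and 2 without P56 replicate 2, where limma on all libraries called 6. Of 30 interferon-stimulated genes, 5 rose and 1 fell (16.7% and 3.33%, against 8.07% and 6.15% of all genes), with a median of 0.90. Ifi27l2a stood at 35.6 and 22.7 at P56, against 0 and 0.377 at E18.5, 155-fold higher (counting interval 27.4 to 6137), with adjusted p = 0.00118. Usp18, a brake on interferon signalling, stood at 3.98 and 3.89 at P56, against 15.02 and 37.7 at E18.5, 6.695-fold lower (adjusted p = 0.0239). Of 38 genes of proteases and their inhibitors, 9 rose and 7 fell, among those the inhibitor Timp3 given above. Wfdc2, a secreted protein of the antiprotease family, stood at 433 and 518 at P56, against 52.8 and 65.9 at E18.5, 8.01-fold higher (adjusted p = 0.000259). Slpi, a secreted inhibitor of neutrophil elastase, stood at 24.8 and 32.1 at P56, against 2.31 and 2.26 at E18.5, 12.4-fold higher (adjusted p = 0.00341). The part of immune cells, whose marker sums are given above, was not tested. edgeR called 5 interferon-stimulated genes higher with all libraries, 3 without P56 replicate 1, 2 without P56 replicate 2 and 9 without E18.5 replicate 1. edgeR called 8 protease and inhibitor genes lower with all libraries, 4 without P56 replicate 1 and 4 without P56 replicate 2. edgeR did not call Nfkbia (adjusted p = 0.0622) and Tlr4 (adjusted p = 0.0643) without P56 replicate 1. Leaving out P56 replicate 2 ended the edgeR call of Tlr4 (adjusted p = 0.0548).

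Lipid handling genes other than those of surfactant rose in part. Of 17 genes of cholesterol efflux and lipid storage tested, 7 rose and 2 fell, with a median log2 change of 1.05. Cd36, a fatty acid transporter of the cell surface that is also on the type 2 marker list, stood at 405 and 354 at P56, against 76.6 and 66.3 at E18.5, 5.31-fold higher (adjusted p = 0.00084). Apoe, the lipoprotein component apolipoprotein E, stood at 64.03 and 75.5 at P56, against 5.005 and 8.67 at E18.5, 10.2-fold higher (adjusted p = 0.00135). Pnpla2, the lipase that opens the breakdown of stored fat, stood at 1265 and 1492 at P56, against 332 and 461 at E18.5, 3.48-fold higher (adjusted p = 0.00232). Soat1, which esterifies cholesterol, stood at 351 and 435 at P56, against 133 and 106 at E18.5, 3.29-fold higher (adjusted p = 0.00315). Plin2, the coat protein of lipid droplets, stood at 738 and 682 at P56, against 279 and 283 at E18.5, 2.53-fold higher (adjusted p = 0.00329). Nr1h3, which encodes the sterol receptor LXR alpha, stood at 106 and 131 at P56, against 26.9 and 41.8 at E18.5, 3.44-fold higher (adjusted p = 0.00896). Abca1, the cholesterol exporter and a well known target of that receptor, went the other way, at 11.4 and 5.51 at P56, against 48.5 and 43.3 at E18.5, 5.44-fold lower (adjusted p = 0.00855). Lipa, the lysosomal acid lipase, fell most, at 3.98 and 1.296 at P56, against 100.5 and 132 at E18.5, 44.1-fold lower (log2 change -5.10, SE 0.40, adjusted p = 0.000366; chromosome 19, 34492316 to 34527474). In these 8 genes the values of P56 and of E18.5 did not overlap, which held for 56.6% of all genes tested. Of 24 cholesterol synthesis and uptake genes, 3 rose and none fell, Nsdhl with 169 and 202 at P56, against 57.8 and 80.2 at E18.5 among them (adjusted p = 0.00937). Of 26 peroxisomal genes 4 rose and 1 fell (15.4% and 3.85%, against 8.07% and 6.15% of all genes). Abcd3, a peroxisomal membrane transporter, stood at 220.3 and 204 at P56, against 77.4 and 87.03 at E18.5, and Scp2, which carries lipids into peroxisomal oxidation, at 2798 and 3053 at P56, against 1260 and 1523 at E18.5 (adjusted p = 0.00563 and 0.00813). edgeR called 3 cholesterol synthesis genes higher with all libraries, 1 without P56 replicate 1 and 1 without P56 replicate 2. edgeR called 4 peroxisomal genes higher with all libraries, and 2 without P56 replicate 2.

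Glycolysis genes fell at several steps. Of 19 glycolysis genes tested, 6 fell and 2 rose, with a median log2 change of -0.46. Slc2a1, the glucose transporter GLUT1, stood at 222 and 195 at P56, against 564 and 622 at E18.5, 2.84-fold lower (adjusted p = 0.00246). Pgam1, phosphoglycerate mutase, stood at 226 and 222 at P56, against 733 and 695 at E18.5, 3.19-fold lower (adjusted p = 0.00106). Pfkfb3, which makes the activator of phosphofructokinase, stood at 1.14 and 1.296 at P56, against 11.2 and 13.6 at E18.5, 10.2-fold lower (adjusted p = 0.00609). Eno1 stood at 3.42 and 3.56 at P56, against 23.1 and 22.98 at E18.5, 6.61-fold lower (adjusted p = 0.00246), and like Pgam1 has near-identical pseudogenes that can take some of its tags. Ldhb, the lactate dehydrogenase subunit of oxidative tissues, rose, at 61.8 and 60.2 at P56, against 23.9 and 25.6 at E18.5 (adjusted p = 0.0123), while Ldha stood at 218 and 186 at P56, against 128 and 121 at E18.5 and missed the threshold (adjusted p = 0.0554). Among genes of glycogen and hexosamine metabolism 4 of 24 fell and 2 rose (16.7% and 8.33%). Of all genes 6.15% fell and 8.07% rose, so that the share that rose was near that of all genes. Pygl, glycogen phosphorylase, stood at 5.98 and 11.01 at P56, against 43.1 and 81.4 at E18.5, 7.33-fold lower (adjusted p = 0.00607). Ppp1r3b, which brings a phosphatase to glycogen, stood at 1.42 and 0.324 at P56, against 26.9 and 22.2 at E18.5, 28.2-fold lower (adjusted p = 0.00206). Without P56 replicate 1, edgeR no longer called Ldhb (adjusted p = 0.0596).

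Of 28 genes of polyamine, arginine, serine and one-carbon metabolism, 6 rose and 3 fell. Ass1, argininosuccinate synthase of the arginine and urea pathways, stood at 91.3 and 145 at P56, against 2978 and 3219 at E18.5, 26.2-fold lower (log2 change -4.74, SE 0.25, adjusted p = 8.86e-05; chromosome 2, 31470270 to 31520670). Arg2, the mitochondrial arginase that consumes arginine, rose, at 23.3 and 18.1 at P56, against 0.77 and 1.13 at E18.5, 21.8-fold higher (adjusted p = 0.00233). Arg2 had only 2 and 3 reads at E18.5. Odc1, which turns the product of arginase into a polyamine, rose too, at 266 and 278 at P56, against 109 and 138 at E18.5, 2.2-fold higher (adjusted p = 0.00981). Psat1, an enzyme of serine synthesis, stood at 1.14 and 2.27 at P56, against 112 and 143 at E18.5, 74.9-fold lower (adjusted p = 0.000115; chromosome 19, 15905123 to 15925059). For Ass1 and Psat1 the P56 libraries were more than 10 times below either E18.5 library. edgeR called 5 genes of arginine, polyamine and serine metabolism higher with all libraries, and 3 without P56 replicate 1.

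Some genes of the respiratory chain rose, and their count depended on single libraries. Of 70 tested, 11 rose (15.7%, against 8.07% of all genes) and none fell, and the median log2 change was 0.33. Besides Cox6a2, Ndufa2, a small subunit of complex I, stood at 894 and 1369 at P56, against 472 and 249 at E18.5, 3.14-fold higher (adjusted p = 0.0165). Cox8a, a small subunit of complex IV, stood at 75.4 and 107 at P56, against 36.96 and 24.5 at E18.5, 2.96-fold higher (adjusted p = 0.0135). In 10 of the 11 genes E18.5 replicate 1 stood above E18.5 replicate 2. edgeR called 3 members higher without P56 replicate 2 and 22 without E18.5 replicate 1, against 13 with all libraries. Of 44 proteins of the large ribosomal subunit, limma called 4 higher and 3 lower (9.09% and 6.82%), near the shares of all genes. With all libraries edgeR called 4 higher and 6 lower. It called 2 higher and 2 lower when P56 replicate 1 was left out, and 0 higher and 2 lower when P56 replicate 2 was. Leaving out E18.5 replicate 1 gave 17 higher and 6 lower, and leaving out E18.5 replicate 2 gave 4 higher and 8 lower. Rpl38 stood at 1334 and 1618 at P56, against 731 and 352 at E18.5, 2.73-fold higher (adjusted p = 0.022). Rpl10a stood at 6412 and 5660 at P56, against 12246 and 10416 at E18.5, 1.88-fold lower (adjusted p = 0.0124), and reads of ribosomal pseudogenes can mix with those of their parent genes. Of 34 genes of folding and stress in the endoplasmic reticulum 4 rose and 2 fell (11.8% and 5.88%). Hspa5, the chaperone BiP, stood at 1815 and 2520 at P56, against 977 and 445 at E18.5, 3.05-fold higher (adjusted p = 0.02097). Hsp90b1, another chaperone, stood at 524 and 693 at P56, against 230.2 and 149 at E18.5, 3.21-fold higher (adjusted p = 0.00616). edgeR called 6 folding and stress genes higher with all libraries, 3 without P56 replicate 2 and 10 without E18.5 replicate 1. edgeR did not call Rpl38 (adjusted p = 0.0981), Rpl10a (adjusted p = 0.0563) and Hspa5 (adjusted p = 0.11) without P56 replicate 2.

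Antioxidant and metal genes rose more often than they fell. Of 43 antioxidant and glutathione genes 12 rose and 1 fell, with a median log2 change of 0.64. These are 27.9% and 2.33%, against 8.07% and 6.15% of all genes. Gclc, the catalytic subunit of the enzyme that limits glutathione synthesis, stood at 359 and 367 at P56, against 99.7 and 87.8 at E18.5, 3.87-fold higher (adjusted p = 0.00121), and Gstt1, a glutathione transferase, at 52.6 and 56.4 at P56, against 7.32 and 7.16 at E18.5, 7.53-fold higher (adjusted p = 0.00143). Gstt3 stood at 807 and 789 at P56, against 325 and 424 at E18.5, 2.13-fold higher (adjusted p = 0.0113). Txn1, which encodes thioredoxin, stood at 64.03 and 90.7 at P56, against 26.2 and 14.3 at E18.5, 3.82-fold higher (adjusted p = 0.0103). Nfe2l2, which encodes Nrf2, the regulator of this programme, stood at 69.7 and 74.5 at P56, against 21.2 and 32.4 at E18.5, 2.69-fold higher (adjusted p = 0.0185). Of 30 iron and metal genes 7 rose and 2 fell (23.3% and 6.67%), the second near the share of all genes. Mt2, a metallothionein, stood at 60.6 and 87.8 at P56, against 8.09 and 4.52 at E18.5, 11.8-fold higher (adjusted p = 0.00231). Tfrc, the transferrin receptor, stood at 314 and 355 at P56, against 114 and 147 at E18.5, 2.56-fold higher (adjusted p = 0.00605). Atp7b, a copper exporter, stood at 299.9 and 302 at P56, against 98.2 and 117 at E18.5, 2.797-fold higher (adjusted p = 0.00422). P56 libraries exceeded E18.5 libraries in each, where 56.6% of all genes tested did not overlap between the stages. edgeR called 13 antioxidant genes higher with all libraries, 7 without P56 replicate 1 and 5 without P56 replicate 2. edgeR called 7 iron and metal genes higher with all libraries, and 4 without P56 replicate 2.

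Transcription factors of the lung epithelium changed in both directions. Of 44 lineage factors tested 7 rose and 10 fell. Sox9, a factor of the distal tip of the growing lung, stood at 1.71 and 0.972 at P56, against 40.8 and 59.9 at E18.5, 37.6-fold lower (log2 change -4.45, SE 0.31, adjusted p = 0.000249). Hif3a, a member of the hypoxia-inducible factor family, stood at 1.14 and 0.324 at P56, against 42.4 and 50.1 at E18.5, 63.2-fold lower (adjusted p = 0.000575), and Foxp2, a forkhead factor, at 15.9 and 13.9 at P56, against 55.4 and 64.8 at E18.5, 4.03-fold lower (adjusted p = 0.00251). Elf5, an Ets factor of the distal epithelium, stood at 145 and 166 at P56, against 350.4 and 348 at E18.5, 2.24-fold lower (adjusted p = 0.00728). On the adult side Ehf, an Ets factor of barrier epithelia, stood at 41.8 and 34.98 at P56, against 0.77 and 1.51 at E18.5, 33.7-fold higher (adjusted p = 0.000938), and Etv5, an Ets factor downstream of FGF signals that is also on the type 2 marker list, at 320.4 and 277 at P56, against 75.8 and 64.05 at E18.5, 4.27-fold higher (adjusted p = 0.000912). Cebpd, a C/EBP factor of acute phase genes, stood at 299.6 and 295 at P56, against 110.1 and 83.6 at E18.5, 3.07-fold higher (adjusted p = 0.00545). Irx3, an Iroquois factor, stood at 1423 and 1406 at P56, against 572 and 667 at E18.5, 2.28-fold higher (adjusted p = 0.00505). Of 13 Kruppel-like factors 2 rose and none fell: Klf2, known for holding endothelial and T cells quiescent, stood at 46.4 and 65.4 at P56, against 3.85 and 3.39 at E18.5, 15.4-fold higher (adjusted p = 0.00107). Klf4, of barrier epithelia, stood at 596 and 783 at P56, against 220.2 and 248 at E18.5, 2.94-fold higher (adjusted p = 0.00384). edgeR called 8 lineage factors higher with all libraries, and 5 without P56 replicate 1. edgeR called 12 lineage factors lower with all libraries, and 7 without P56 replicate 1.

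Output genes of the circadian clock differed between the stages. Of 21 clock genes tested 5 rose and 3 fell (23.8% and 14.3%, against 8.07% and 6.15% of all genes). Dbp, a clock output factor, stood at 45.2 and 46.6 at P56, against 3.08 and 3.39 at E18.5, 14.2-fold higher (adjusted p = 0.00114). Nr1d1, which encodes the clock repressor Rev-erb alpha, stood at 181 and 152 at P56, against 27.7 and 45.6 at E18.5, 4.55-fold higher (adjusted p = 0.00443). Nr1d2, which encodes Rev-erb beta, stood at 148 and 119 at P56, against 29.3 and 18.1 at E18.5, 5.65-fold higher (adjusted p = 0.00259). Bhlhe40 stood at 147 and 169.7 at P56, against 30.03 and 37.7 at E18.5, 4.68-fold higher (adjusted p = 0.00174), while Tef, a relative of Dbp, fell, at 453 and 382 at P56, against 951 and 1010 at E18.5, 2.35-fold lower (adjusted p = 0.00559). Levels of these genes swing over the day, and the labels give no hour, so stage and hour cannot be told apart here. Among 13 glucocorticoid response genes 3 fell and 2 rose. Fkbp5, a chaperone partner of the receptor, stood at 12.8 and 10.7 at P56, against 63.5 and 83.3 at E18.5, 6.25-fold lower (adjusted p = 0.00143). Tsc22d3, which encodes GILZ, stood at 341 and 373 at P56, against 694 and 909.9 at E18.5, 2.25-fold lower (adjusted p = 0.01002). Of 20 immediate early genes 4 rose and 2 fell. Fosb stood at 1306 and 1477 at P56, against 477 and 571 at E18.5, 2.65-fold higher (adjusted p = 0.00336). Egr1 stood at 425 and 525 at P56, against 198 and 201 at E18.5, 2.38-fold higher (adjusted p = 0.00714). Maff fell, at 106 and 103 at P56, against 270.3 and 247 at E18.5, 2.48-fold lower (adjusted p = 0.00558). edgeR called 4 clock genes lower with all libraries, 2 without P56 replicate 1 and 1 without P56 replicate 2. edgeR called 4 immediate early genes higher with all libraries, 2 without P56 replicate 1 and 2 without P56 replicate 2. edgeR called 4 immediate early genes lower with all libraries, 2 without P56 replicate 1 and 1 without P56 replicate 2.

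In the growth factor pathways some members rose and others fell. In the Wnt pathway 4 of 34 rose and 4 fell, 11.8% each way, against 8.07% and 6.15% of all genes. Wnt3a, a ligand of the canonical branch, stood at 7.68 and 14.2 at P56, against 102 and 160.1 at E18.5, 11.97-fold lower (adjusted p = 0.00163). Fzd2, a receptor, stood at 3.13 and 2.27 at P56, against 25.4 and 33.2 at E18.5, 10.8-fold lower (adjusted p = 0.00117). The receptor Ror2 had 0 and 0 reads at P56, against 70 and 142 at E18.5, at least 88.2-fold lower (adjusted p = 0.000372). Sp5, a factor induced by canonical Wnt signals, rose, at 140.0 and 214 at P56, against 42.7 and 64.4 at E18.5, 3.31-fold higher (adjusted p = 0.0106). In the TGF-beta and BMP pathway 6 of 38 fell and 3 rose (15.8% and 7.89%), the second near the share of all genes. Tgfb2, a ligand, stood at 1.71 and 2.59 at P56, against 36.96 and 36.9 at E18.5, 17.2-fold lower (adjusted p = 0.000366). Ltbp4, which anchors latent ligand in the matrix, stood at 6.83 and 5.18 at P56, against 61.2 and 59.9 at E18.5, 10.1-fold lower (adjusted p = 0.000912). Bambi, a decoy receptor, rose, at 1628 and 1353 at P56, against 569 and 577 at E18.5, 2.599-fold higher (adjusted p = 0.00323). In FGF, EGF and related signals 5 of 34 rose and 4 fell (14.7% and 11.8%). Vegfa, the vascular growth factor that type 1 cells supply and a marker of them here, stood at 71.99 and 66.1 at P56, against 408 and 369 at E18.5, 5.63-fold lower (adjusted p = 0.00041). Shh, the hedgehog ligand that signals to mesenchyme, stood at 172 and 125 at P56, against 672 and 793 at E18.5, 4.94-fold lower (adjusted p = 0.000782). Egfr, the EGF receptor, stood at 3.42 and 8.097 at P56, against 53.9 and 40.7 at E18.5, 8.22-fold lower (adjusted p = 0.00443). Btc, a ligand of that receptor, rose, at 54.9 and 66.1 at P56, against 17.3 and 18.1 at E18.5, 3.42-fold higher (adjusted p = 0.00644). In the Notch pathway 6 of 21 fell and 1 rose (28.6% and 4.76%). Its ligand gene Jag2 stood at 32.2 and 24.6 at P56, against 91.6 and 85.2 at E18.5, 3.11-fold lower (adjusted p = 0.00735). Of insulin-like growth factor genes, Igf1r, the receptor, stood at 10.2 and 13.3 at P56, against 78.5 and 117 at E18.5, 8.32-fold lower (adjusted p = 0.000938). Igfbp6, a binding protein, stood at 1010 and 906 at P56, against 4114 and 5289 at E18.5, 4.91-fold lower (adjusted p = 0.000554). edgeR called 4 Wnt genes higher with all libraries, and 2 without P56 replicate 1. edgeR called 3 TGF-beta and BMP genes higher with all libraries, 1 without P56 replicate 1 and 1 without P56 replicate 2. edgeR called 9 TGF-beta and BMP genes lower with all libraries, and 5 without P56 replicate 2. edgeR called 6 FGF and EGF genes higher with all libraries, 3 without P56 replicate 1 and 2 without P56 replicate 2. edgeR called 8 FGF and EGF genes lower with all libraries, 5 without P56 replicate 1 and 4 without P56 replicate 2. edgeR called 7 Notch genes lower with all libraries, 4 without P56 replicate 1 and 3 without P56 replicate 2.

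Transport genes changed in both directions. Of 27 genes of sodium, chloride and water transport 8 fell and 4 rose (29.6% and 14.8%, against 6.15% and 8.07% of all genes). Besides Scnn1g and Aqp1, the chloride channel gene Ano1 stood at 9.96 and 11.7 at P56, against 111 and 76.9 at E18.5, 8.702-fold lower (adjusted p = 0.000912). Wnk1, a kinase that sets salt transport, stood at 264 and 176 at P56, against 638 and 734 at E18.5, 3.12-fold lower (adjusted p = 0.00478). Nedd4l, the ligase that removes the sodium channel from the surface, stood at 82.5 and 89.1 at P56, against 254 and 272 at E18.5, 3.07-fold lower (adjusted p = 0.00259). Fxyd4, a regulator of the sodium pump, stood at 2.56 and 4.86 at P56, against 63.9 and 39.2 at E18.5, 13.9-fold lower (adjusted p = 0.00253). Scnn1a, the alpha subunit of the sodium channel, was not called by limma, at 1024 and 1548 at P56, against 1875 and 2260 at E18.5 (adjusted p = 0.0937, edgeR adjusted p = 0.0396). Slc26a4, which encodes the anion exchanger pendrin, had 71 and 84 reads at P56, against 0 and 0 at E18.5, at least 41.5-fold higher (adjusted p = 0.00114). Of 20 transporters of phosphate, bicarbonate and organic ions 6 rose and 1 fell, among them Slc34a2, the phosphate transporter of type 2 cells, at 1149 and 1090 at P56, against 493 and 549 at E18.5, 2.15-fold higher (adjusted p = 0.00855). edgeR called 4 sodium, chloride and water transport genes higher with all libraries, 1 without P56 replicate 1 and 1 without P56 replicate 2.

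Regulators of growth and death of cells changed in a few members. Of 38 cell cycle regulators 5 fell and 3 rose (13.2% and 7.89%, against 6.15% and 8.07% of all genes), so that the share that rose was near that of all genes. Cdkn2b, which encodes the inhibitor p15, stood at 1.14 and 2.92 at P56, against 93.9 and 85.2 at E18.5, 44.2-fold lower (log2 change -4.97, SE 0.36, adjusted p = 0.000286). E2f7, a repressor of cell cycle genes, stood at 5.12 and 4.53 at P56, against 56.6 and 51.6 at E18.5, 11.2-fold lower (adjusted p = 0.000473). Ccnd1, which encodes cyclin D1, rose, at 58.9 and 74.2 at P56, against 7.32 and 6.03 at E18.5, 9.97-fold higher (adjusted p = 0.000554). Of 35 apoptosis genes 5 fell and 3 rose (14.3% and 8.57%), with the caspase gene Casp2 at 8.54 and 8.097 at P56, against 39.3 and 24.5 at E18.5 (adjusted p = 0.0115). Of 31 autophagy genes 4 rose (12.9%) and none fell. Sqstm1, which encodes the cargo receptor p62, stood at 141 and 155 at P56, against 43.5 and 42.6 at E18.5, 3.44-fold higher (adjusted p = 0.00302). Optn, another such receptor, stood at 101 and 103 at P56, against 32.7 and 40.7 at E18.5, 2.79-fold higher (adjusted p = 0.00863). Among RNA-binding and chaperone genes, Qk, which encodes the splicing factor quaking, stood at 156 and 142 at P56, against 1053 and 1196 at E18.5, 7.55-fold lower (adjusted p = 0.000151). Cryab, a small heat shock protein, stood at 727 and 762 at P56, against 3602 and 3698 at E18.5, 4.903-fold lower (adjusted p = 0.000249). edgeR called 4 apoptosis genes higher with all libraries, 2 without P56 replicate 1 and 1 without P56 replicate 2. edgeR called 5 apoptosis genes lower with all libraries, 2 without P56 replicate 1 and 3 without P56 replicate 2. edgeR called 4 autophagy genes higher with all libraries, and 2 without P56 replicate 2.

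The single libraries of the other stages place these values in time, without a test of their own. At E13.5, E15.5 and P14, in that order, Lamc1 stood at 157, 228 and 67.4, Ctgf at 206, 345 and 288 and Ass1 at 22.7, 842 and 61.9 units. Col4a3 stood at 0.473, 15.4 and 258, so that its P14 library was above both E18.5 libraries and both P56 libraries. Cxcl2 stood at 4.02, 1.44 and 6.05, and its P14 library lay nearer to the E18.5 than to the P56 libraries. Itih4 stood at 0, 0 and 168, Cox6a2 at 0, 0 and 206 and Mfsd2a at 14.7, 1.44 and 64.1, each with its P14 library between the E18.5 and the P56 libraries.

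**Figure D5:**
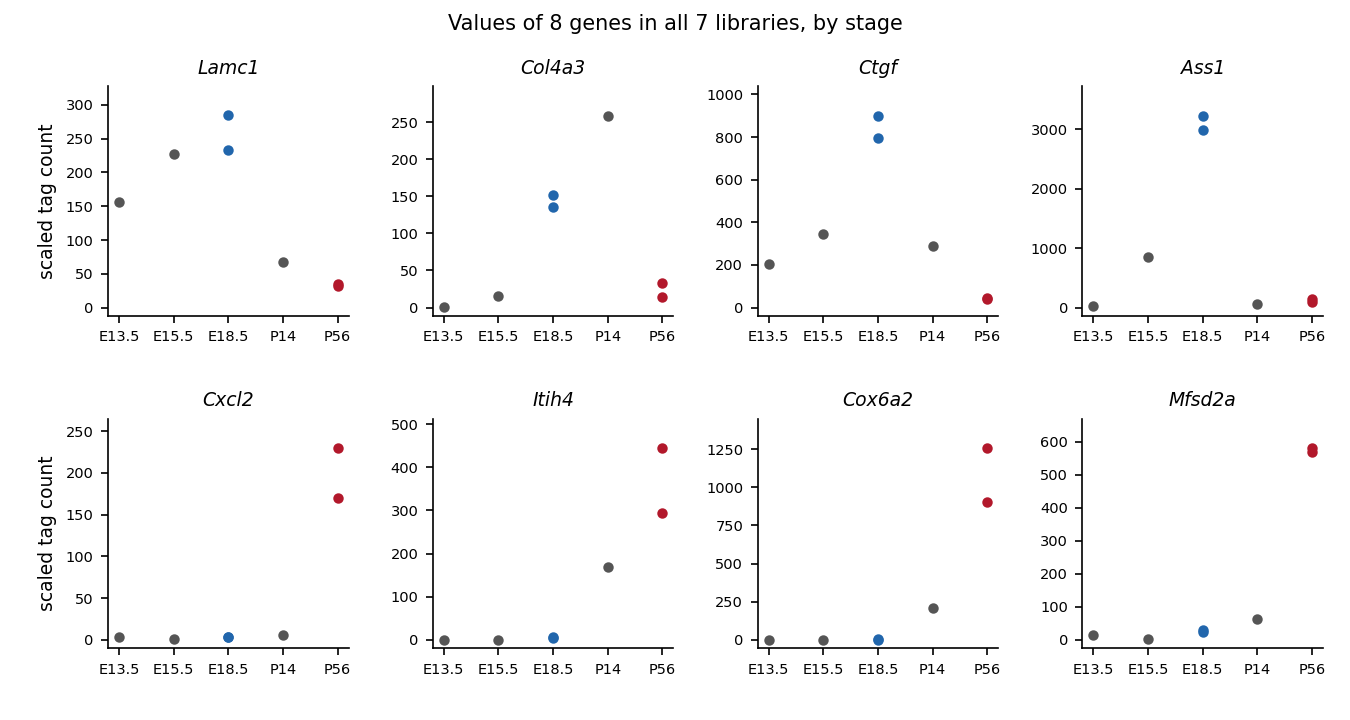
Scaled tag counts (vertical axis, linear, with 0 shown) of 8 genes in all 7 libraries, ordered along the horizontal axis by stage, each point being 1 library, with E18.5 in blue, P56 in red and stages of 1 library in grey. Lamc1, Ctgf and Ass1 stand high at E18.5 and low at P56, Col4a3 stands highest at P14, and Cxcl2, Itih4, Cox6a2 and Mfsd2a stand highest at P56.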

How the data were processed

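3' SAGE-seq tags of sorted lung epithelial cells were read on an Ion Proton instrument, per the labels. The submitters' processing notes name Bowtie2 2.2.5, R 3.4.0 and mm10. Each deposited value is a scaled tag count (a signal), made by the authors by dividing tag counts by 1 factor per library. All values became whole reads within 0.01 once that step was undone, and the recovered reads sum to 2617913 to 3587970 in the 4 libraries compared. The filter and step used to count tags per gene are not given in the sources used here.

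Of 21121 genes listed, 12964 passed edgeR's filterByExpr by stage. limma 3.58.1 (trend and robust, R 4.3.3) was fitted to log2(value + 1) of all 7 libraries with a coefficient per stage and 2 residual degrees of freedom, and p-values were adjusted by Benjamini-Hochberg over all genes tested. Log2 changes are on that scale and understate low genes, while folds are ratios of mean values. edgeR 4.0.16 and DESeq2 1.42.0 on the recovered reads, other scalings, filters and pseudocounts, a replicate block and each library left out were alternatives. The fits were tested on simulated data. Named genes are the 16 largest called changes per direction with a mean of at least 100 units, up to 4 members per list and direction with the smallest p, the 10 most abundant genes, the 6 largest differences per direction, sort markers, and paralogs of these. The 16 largest also had to show no overlap between the libraries of the 2 stages, and predicted gene symbols were left out of them. Genes of the surfactant, MHC class II and imprinted lists were left out, and some other genes are not reported here. Outside this rule, Aqp5, Dag1, Npnt, Fras1, Frem2, the collagen IV chains, integrins, the Tead genes, Msn, Actg1, Il6, Csf2, Cxcl10, Cxcl15, C3, C6, Plin2, Nfe2l2, Wnk1, Nedd4l and Scnn1a were chosen after their values were seen. The groups compared and the 71 gene lists were chosen with earlier results of these data known, so that their counts are descriptions. Positions and promoters are from RefSeq (GRCm38.p6), in which 18219 symbols matched.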

Additional observations from a re-analysis of the deposited data

How the results depend on the processing

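Of 19 alternatives, DESeq2 called fewer genes, 632 higher and 625 lower, as did the fit without a filter on low values (21121 genes tested), with 355 higher and 324 lower, and variance estimates that were not robust, with 609 higher and 516 lower. So did the replicate block, given below. Counts of the remaining fits that left out none of the 4 libraries stayed within 1.5 times those reported, among them 910 higher and 862 lower with TMM scaling, which put the median log2 change of all genes at 0.00 in place of 0.06. With 1 library left out, limma and edgeR together gave 0 to 1474 genes higher and 0 to 1323 lower, the 0 in each of the limma fits on 1 residual degree of freedom. The replicate numbers did not pair the libraries, since the deviations of same-numbered libraries correlated at r = 0.00982 across 12964 genes. The fit of the 4 libraries with a replicate block called 543 genes higher and 441 lower. Without a filter, the basement membrane list had 12 members lower in place of 25, and the respiratory chain list 0 higher in place of 11. Of the named genes called, 201 of 202 were also called by edgeR with all libraries. Most of them were picked for a small p or a large change. The call was lost in 115 of them without a filter on low values. It was lost in 16 with variance estimates that were not robust and in 12 with the replicate block.

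The sign of Epcam, which was not called, reversed: its log2 change was -0.18 (limma) and -0.29 (edgeR) without P56 replicate 1, and -0.06 (limma) and -0.07 (edgeR) without E18.5 replicate 2, against up to 0.66 without P56 replicate 2. The cause was not tested. With 2 libraries a stage and 0.285 to 0.385 units per read, differences of genes with a few reads were not detectable.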

Other observations

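Guidance cues and their receptors, known from growing nerves and vessels, were lower at P56 in 8 of 42 tested genes and higher in 2. Sema3a, a secreted repellent, stood at 0.569 and 1.296 at P56, against 44.3 and 35.8 at E18.5, 42.9-fold lower (adjusted p = 0.00053). Sema3a is also on the type 1 marker list. Sema3e, a relative, stood at 12.2 and 13.6 at P56, against 96.2 and 87.4 at E18.5, 7.11-fold lower (adjusted p = 0.00039). Their co-receptor genes split: Nrp1 rose, at 342 and 431 at P56, against 108 and 112 at E18.5, 3.52-fold higher (adjusted p = 0.00188). Nrp2 fell and stood at 4.27 and 6.15 at P56, against 64.3 and 57.3 at E18.5, 11.7-fold lower (adjusted p = 0.000624). Other close relatives also took opposite directions. Ror1 stood at 33.01 and 16.8 at P56, against 2.31 and 6.03 at E18.5, 5.98-fold higher (adjusted p = 0.0189), where its relative Ror2 had no read at P56. Paralogs that split in this way were picked out after their values were seen. edgeR called 3 guidance genes higher with all libraries, and 1 without P56 replicate 1. edgeR called 9 guidance genes lower with all libraries, and 14 without E18.5 replicate 1. Leaving out P56 replicate 1 ended the edgeR call of Ror1 (adjusted p = 0.0634).

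Potassium and calcium channel and pump genes were higher at P56 in 7 of 30 and lower in 1. Kcnj2, an inward rectifier that sets the resting potential, stood at 93.05 and 60.9 at P56, against 6.54 and 3.77 at E18.5, 14.9-fold higher (adjusted p = 0.00147). Itpr2, a calcium release channel of the endoplasmic reticulum, stood at 133 and 110.1 at P56, against 13.5 and 13.2 at E18.5, 9.12-fold higher (adjusted p = 0.000575). Car8, a carbonic anhydrase-related protein without the enzyme activity, stood at 143 and 139.9 at P56, against 22.3 and 21.5 at E18.5, 6.46-fold higher (adjusted p = 0.000797). Among tubulins Tuba4a stood at 504 and 653 at P56, against 90.1 and 43.3 at E18.5, 8.67-fold higher (adjusted p = 0.00142). Of 27 glycosyltransferase and mucin genes 4 rose and 5 fell: the mucin gene Muc4 stood at 38.7 and 45.3 at P56, against 8.86 and 5.28 at E18.5, 5.95-fold higher (adjusted p = 0.00485). St6gal1, which adds sialic acid, stood at 11.7 and 10.7 at P56, against 53.5 and 46.3 at E18.5, 4.47-fold lower (adjusted p = 0.00309). Of 37 tetraspanin and membrane glycoprotein genes 11 fell and 6 rose, Tspan15 standing at 392 and 326 at P56, against 1731 and 1727 at E18.5, 4.81-fold lower (adjusted p = 0.000372). Cd200, a ligand that restrains macrophages, stood at 116 and 110.1 at P56, against 14.2 and 9.04 at E18.5, 9.702-fold higher (adjusted p = 0.000912). edgeR called 5 glycosyltransferase and mucin genes higher with all libraries, and 3 without P56 replicate 2.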
